A study of Sus scrofa with 4 samples.

Results

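The genes described here encode the contractile apparatus of smooth muscle, and they were followed while pig fat-cell precursors turned into adipocytes in culture. They were chosen by name from the protein-coding rows of the deposited files. All 10 genes (ACTA2, ACTG2, TAGLN, CNN1, MYH11, MYL9, MYLK, LMOD1, DES and CALD1) were found, out of 16192 protein-coding genes. The cells were subcutaneous preadipocytes of male Chinese Erhualian piglets aged 5 days, freed from the fat with collagenase and grown to confluence without a sort for any cell type. D0 was the confluent culture before induction. D2 followed 2 days in a cocktail of dexamethasone, 3-isobutyl-1-methylxanthine and insulin, D4 followed 2 more days with insulin, and D8 followed growth medium without added hormone. At each stage, RNA of 3 piglets was pooled into 1 library, so there were no replicates. No test between stages was possible, and stage and library cannot be told apart.

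In smooth muscle, myosin pulls on filaments of the actins encoded by ACTA2 and ACTG2. Calcium-bound calmodulin activates the kinase encoded by MYLK, which phosphorylates the regulatory light chain encoded by MYL9 and so switches on the myosin encoded by MYH11. Calponin, transgelin, caldesmon and leiomodin bind the actin filament, and desmin forms the intermediate filaments that tie the apparatus to the cell. The same genes, ACTA2 and TAGLN above all, are also known from activated fibroblasts and from stromal cells spread on stiff plastic. Many of them are targets of serum response factor and its actin-sensing partners.

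Expression was measured as FPKM, that is fragments per kilobase of gene, scaled to the fragments counted in the library, so that levels of different genes can be compared. The library totals behind FPKM lay between 54128151 (D8) and 75387428 (D0) fragments. With these totals, the fragments of each of the 10 genes were taken from the shortest gene length that made its FPKM values whole numbers. The fragments ran from 105 for MYH11 at D8 to 470075 for CALD1 at D0. A gene was reliably expressed when its FPKM was at least 1 in at least 3 libraries, which held for 9191 mRNAs and for 9 of the 10 genes, MYH11 being the exception. Log2 ratios were computed on FPKM + 0.01, and a gene was called upregulated or downregulated at a ratio of at least 2. The 95% intervals printed with them cover counting error only, and the spread between piglets or cultures was not measured.

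The 10 genes together held 1.67% of all fragments in the D0 library, 0.310% in D2, 0.286% in D4 and 1.17% in D8. Their summed FPKM was 7718 for D0, 1003 for D2, 826 for D4, and 5758 for D8. ACTA2 and TAGLN alone made up 73.5% (D0), 62.0% (D2), 60.8% (D4) and 82.5% (D8) of that sum. The sum thus follows these 2 genes above all. The median FPKM of the 10 genes, which does not, was 265 for D0, 20.9 for D2, 4.35 for D4, and 30.0 for D8. At D0, D2 and D8 this median lay midway between CNN1 and DES. At D8 these genes stood at only 25.7% and 8.19% of D0, so the median does not give the return of a typical gene. Over the 9 reliably expressed genes, the median log2 ratio of D8 to D0 was -0.63. In a bulk library, fewer cells of a type and less RNA per cell cannot be told apart.

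**Figure D1:**
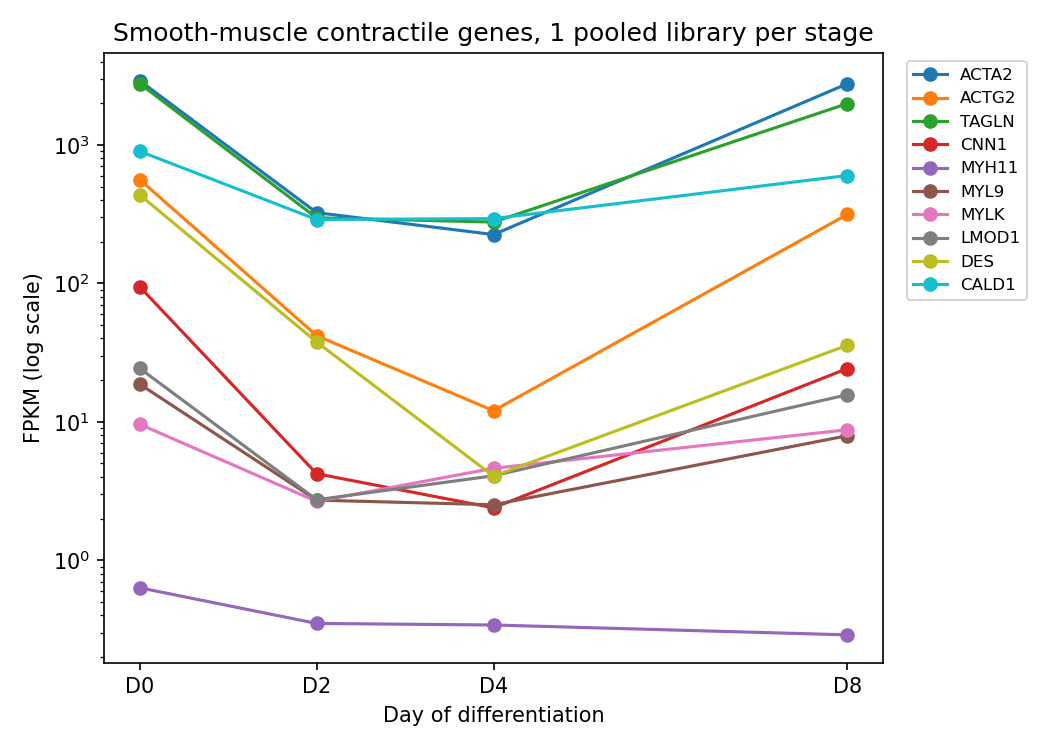
FPKM on a log axis against day of differentiation for the 10 genes, 1 point per gene and pooled library, with lines joining the points of a gene. ACTA2 and TAGLN start near 2907 and 2767 at D0 and reach 2762 and 1987 at D8, DES is the gene with the widest range (436 to 4.05), and MYH11 stays under 1 throughout.

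ACTA2 encodes the alpha actin of vascular smooth muscle, the usual marker of contractile fibroblasts. Its FPKM was 2907 (D0), 324 (D2), 225 (D4) and 2762 (D8). At D0 it ranked 15 among all protein-coding genes, at D4 it ranked 258, and at D8 it was back at rank 16. The log2 ratio was -3.17 between D2 and D0 (95% interval -3.18 to -3.15) and 3.62 between D8 and D4 (3.60 to 3.64). The D8 library held 95.03% of the D0 level, a log2 ratio of -0.07 that became 0.08 under median-ratio scaling, so no direction is given for it.

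ACTG2 encodes the gamma actin of enteric smooth muscle. Its FPKM was 562 for D0, 41.9 for D2, 12.0 for D4, and 315 for D8. It was downregulated again between D4 and D2 (log2 ratio -1.80, interval -1.89 to -1.71). The ratio of D8 to D4 was 26.2, rank 3 from the highest among the 9191 reliably expressed mRNAs. Per length, ACTG2 stood at 19.3% of ACTA2 (D0), 12.9% (D2), 5.34% (D4) and 11.4% (D8). The muscle actins have nearly the same coding sequence, and how the authors assigned fragments that map to several of them is not given in the sources used here. The levels of ACTA2 and ACTG2 are uncertain to that extent. The other two muscle actins, added to this account after their values were seen, were low, with at most 0.478 FPKM for ACTA1 and 0.104 for ACTC1.

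Among the proteins that bind the actin filament, TAGLN (transgelin, also SM22 alpha) was the most abundant. Its FPKM was 2767 for D0, 297 for D2, 277 for D4, and 1987 for D8. It fell 9.31-fold from D0 to D2, hardly differed between D2 and D4 (log2 ratio -0.10), and rose 7.17-fold from D4 to D8. CNN1, the calponin of smooth muscle, had an FPKM of 94.3 (D0), 4.22 (D2), 2.39 (D4) and 24.2 (D8). Its drop from D0 to D2 was the steepest of the 10 genes, at 22.4-fold, and the D8 level was 25.7% of D0. Relative to TAGLN, CNN1 stood at 3.41% for D0, 1.42% for D2, 0.864% for D4, and 1.22% for D8.

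CALD1 encodes caldesmon, which restrains actin-activated myosin and has a form in most cell types besides the smooth-muscle form. Its FPKM was 899 (D0), 289 (D2), 293 (D4) and 601 (D8), so that D2 and D4 were level and D8 lay at 66.8% of D0. The rise from D4 to D8 was 2.05-fold, just past the threshold. It was just under it when the protein-coding genes were scaled to the same total (log2 ratio 0.98 instead of 1.03). FPKM pools the forms of a gene, and the 2 forms of caldesmon were not separated here. LMOD1, the leiomodin that nucleates actin filaments in smooth muscle, had an FPKM of 24.3 for D0, 2.74 for D2, 4.08 for D4, and 15.7 for D8. Its lowest library was D2, and D4 was 1.49-fold higher than D2.

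On the side of myosin, MYL9 (the regulatory light chain of smooth muscle) had an FPKM of 18.7 (D0), 2.72 (D2), 2.52 (D4) and 7.94 (D8). It was downregulated at D2 and D4 and upregulated between D8 and D4 (log2 ratio 1.65, interval 1.43 to 1.88). MYLK, the kinase of that light chain, had an FPKM of 9.60 for D0, 2.66 for D2, 4.62 for D4, and 8.76 for D8. MYLK moved least of the 9 reliably expressed genes from D0 to D4, with a 2.08-fold fall that was no longer called with a pseudocount of 1 (log2 ratio -0.92). Its D8 level was 91.3% of D0. The log2 ratio of D8 to D4 was 0.92 for MYLK, which did not reach the threshold on FPKM as deposited and reached 1.12 under median-ratio scaling.

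MYH11 encodes the heavy chain of smooth-muscle myosin and is the most restricted marker of mature smooth-muscle cells in the set. Its FPKM was 0.633 (D0), 0.350 (D2), 0.341 (D4) and 0.289 (D8), or 320, 129, 170 and 105 fragments. Alone among the 10 genes it was lowest at D8, and the interval of its log2 ratio between D8 and D4 (-0.60 to 0.12) includes 0. MYH9, a heavy chain of nonmuscle myosin that was added after its values were seen, had an FPKM of 75.3, 18.7, 23.4 and 36.9 at D0, D2, D4 and D8. MYH11 therefore stood between 0.783% and 1.87% of MYH9 in the 4 libraries. The defining myosin of mature smooth muscle was thus under 1 FPKM in every library, while the other 9 genes were well above it at D0.

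DES encodes desmin. Its FPKM was 436 for D0, 37.7 for D2, 4.05 for D4, and 35.7 for D8. DES fell at each of the first 2 steps, 11.6-fold from D0 to D2 and 9.30-fold from D2 to D4, and stood at 8.19% of its D0 level at D8. The level at D8 was below the level at D2, which was otherwise seen only for MYH11. Per length, DES stood at 15.0% of ACTA2 (D0), 11.6% (D2), 1.80% (D4) and 1.29% (D8). Skeletal muscle and its precursors also express DES. Of 16 skeletal muscle markers listed in the files, 14 stayed under 1 FPKM in all 4 libraries, MYOG and CKM among them at no more than 0.0269 and 0.0764. The other two were ENO3, an enolase, with 15.9, 0.735, 1.01 and 2.55 FPKM, and TNNC2, a troponin, with 6.80, 1.58, 1.67 and 8.05 FPKM at D0, D2, D4 and D8. The summed FPKM of the skeletal muscle list was 23.2 for D0, 2.53 for D2, 3.06 for D4, and 11.09 for D8, and its part in the level of DES was not tested.

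**Figure D2:**
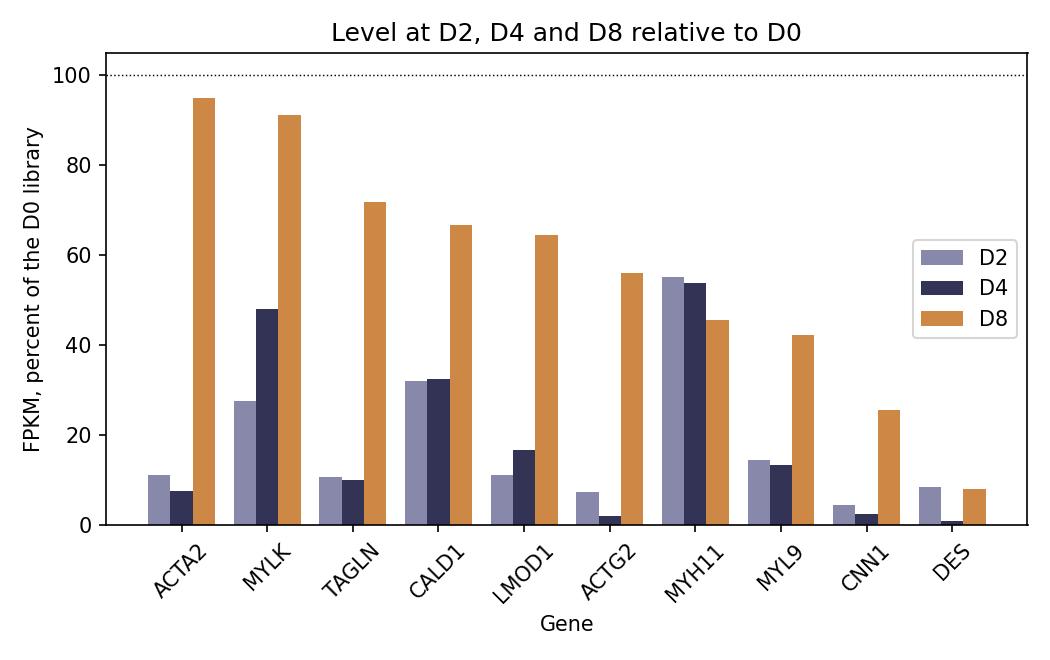
Bars give the FPKM of each gene at D2, D4 and D8 as a percentage of the D0 library (dotted line at 100), with genes ordered by the D8 bar and 1 pooled library per bar. ACTA2 (95.03%) and MYLK (91.3%) were nearest to D0 at D8, whereas CNN1 (25.7%) and DES (8.19%) were farthest from it.

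Between D2 and D0, all 9 reliably expressed contractile genes were downregulated, with a median log2 ratio of -3.17 and a range from -4.48 (CNN1) to -1.64 (CALD1). Among all 9191 reliably expressed mRNAs, 10.1% were downregulated and 6.67% were upregulated in this comparison, and the median log2 ratio was -0.03. MYH11, which did not pass the filter, had a log2 ratio of -0.84.

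Between D4 and D2, ACTG2 and DES were downregulated and none of the 9 genes was upregulated, against 0.838% of all mRNAs downregulated and 4.24% upregulated. The other 7 genes had log2 ratios between -0.81 (CNN1) and 0.79 (MYLK). For CALD1 the ratio was 0.02 and became -0.06 under median-ratio scaling and -0.05 with equal protein-coding totals, so that the gene has no direction here.

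Between D8 and D4, 8 of the 9 genes were upregulated (all but MYLK), with a median log2 ratio of 2.84. In the background, 4.43% of mRNAs were upregulated, 10.1% were downregulated, and the median log2 ratio was -0.21. Median-ratio scaling, which set the median of all mRNAs at -0.01, raised each log2 ratio of this comparison by 0.20. From the highest ratio downward among the 9191 mRNAs, ACTG2 ranked 3, ACTA2 9, CNN1 12, DES 15 and TAGLN 26.

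Between D4 and D0, all 9 genes were downregulated, against 8.81% of all mRNAs, of which 10.4% were upregulated. The median log2 ratio was -3.32 for these genes and 0.06 for all mRNAs. DES (log2 ratio -6.75), ACTG2 (-5.54) and CNN1 (-5.29) ranked 1, 2 and 3 from the lowest among the 9191 mRNAs. ACTA2 ranked 18 and TAGLN 30 from the lowest, while MYLK ranked 731.

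Between D8 and D0, 3 of the 9 genes (DES, CNN1 and MYL9) were downregulated, none was upregulated, and 6 were not called. The background was 3.68% of mRNAs downregulated and 3.6% upregulated, with a median log2 ratio of -0.18, and the median of the contractile genes was -0.63. All 9 genes had lower FPKM at D8 than at D0. Under median-ratio scaling, ACTA2 and MYLK were instead higher at D8, with log2 ratios of 0.08 and 0.03. The comparisons with D0 share the D0 library, and those with D4 share the D4 library, so they are not independent of one another.

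**Figure D3:**
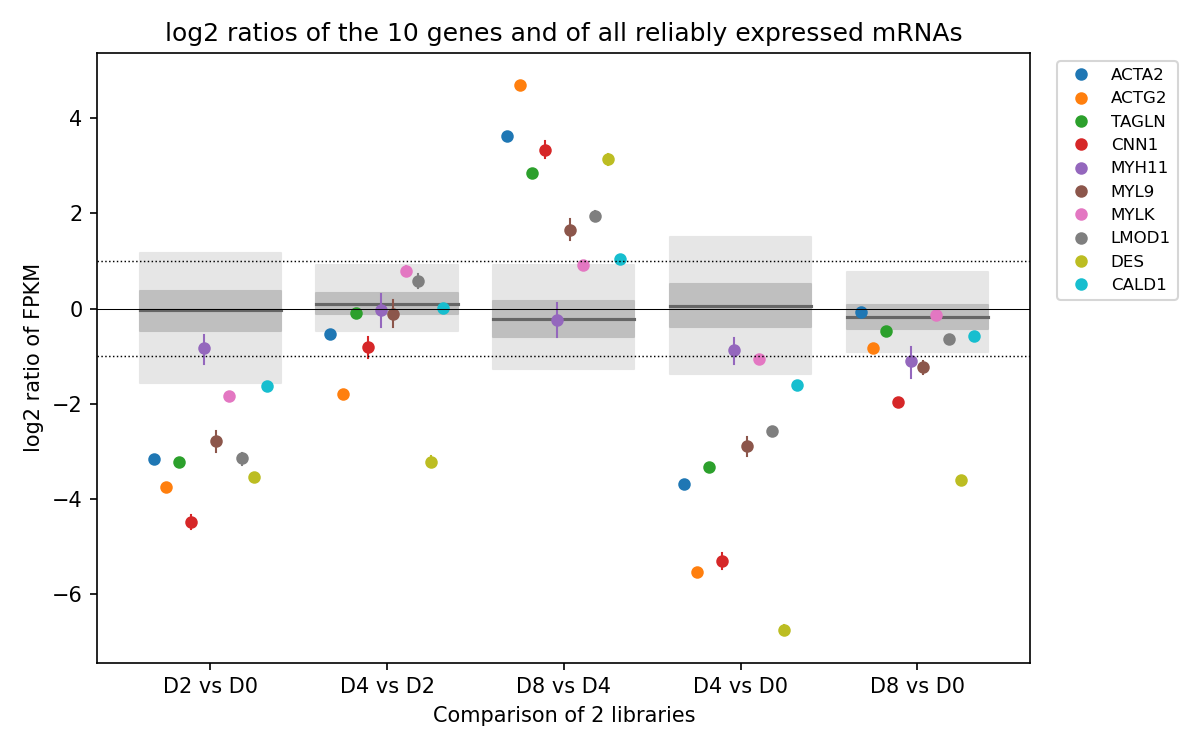
Log2 ratios of FPKM for the 10 genes in the 5 comparisons (points, with vertical lines for the 95% counting interval), over the range of the 9191 reliably expressed mRNAs (light grey from the 5th to the 95th percentile, dark grey the middle 50%, line at the median). Dotted lines mark ratios of 2 in either direction. The genes lie below the grey range in D2 vs D0, with MYH11 inside it, and 8 of them lie above a ratio of 2 in D8 vs D4.

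The level profile over the 4 libraries also varied within the set. As a measure of likeness, the root mean square difference in log2 FPKM was taken after each profile was centred on its own mean. TAGLN was nearest to the median profile of the 9 genes (0.20), followed by MYL9 (0.32), LMOD1 (0.35) and ACTA2 (0.42), and DES was farthest (1.46). Outside the set, the nearest of 9180 other reliably expressed mRNAs was CAPG, which encodes an actin-capping protein, at 0.06. Its FPKM was 256 (D0), 35.0 (D2), 28.8 (D4) and 155 (D8). The next were ITGA8, an integrin subunit of contractile cells (0.13), EMP3 (0.13), RHBDL2 (0.18) and PPP1R14A, an inhibitor of myosin phosphatase (0.19). TUBB2B, MICAL1, SEMA3D, FADS3 and LOC110257905 completed the nearest 10, at up to 0.22. For DES the nearest profiles were SFRP4 (0.83), IL11 (0.97) and CLDN1 (1.05), so the nearest lay farther off than any of the 10 above. MYLK had near neighbours in TMEM26, TRIM59 and PPFIBP1, each at 0.08. These distances rest on 4 libraries and are descriptions.

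Regulators of the smooth-muscle programme were looked at next. MYOCD, the cofactor of serum response factor that is restricted to smooth and cardiac muscle, was at 0.137 FPKM (D0) and 0.0192 FPKM (D4) and listed at 0 in the D2 and D8 libraries. SRF itself was 7.86, 3.90, 6.20 and 5.07 FPKM at D0, D2, D4 and D8. Its actin-sensing cofactors, listed as MKL1 and MKL2, stayed under 1 FPKM in all libraries. Of 8 reliably expressed regulators, 5 were downregulated between D2 and D0 and none was upregulated, with a median log2 ratio of -1.05. Over all 9191 mRNAs, for this and the lists below, 10.1% were downregulated and 6.67% were upregulated in D2 vs D0. These shares were 8.81% and 10.4% in D4 vs D0, and 10.1% and 4.43% in D8 vs D4. FHL2, a LIM-domain cofactor, had 11.5, 1.44, 1.51 and 4.98 FPKM. CSRP1, another LIM-domain protein, had 75.6, 16.2, 24.1 and 47.2 FPKM. Between D8 and D4, FHL2 and KLF4 were upregulated and ELK1 was downregulated, and the median was 0.44.

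The wider contractile machinery was counted in lists that did not include the 10 genes. Of 10 reliably expressed tropomyosins, calponins, transgelins and other actins or tropomodulins, 9 were downregulated between D2 and D0 (median log2 ratio -2.14) and 9 between D4 and D0. In this list, 4 were upregulated between D8 and D4 (median 0.80). The tropomyosins TPM2 (413, 90.2, 48.0 and 350 FPKM at D0, D2, D4 and D8), TPM1 (501, 83.2, 68.4 and 267) and TPM4 (2385, 578, 400 and 1555) had the lowest D4 to D0 ratios. At the other end, TMOD3, which caps filament ends, was at 25.6, 22.2, 30.9 and 21.3 FPKM. The cytoplasmic actin ACTB, added after its values were seen, had 561, 117, 174 and 267 FPKM. ACTA2 stood at 5.18 (D0), 2.78 (D2), 1.29 (D4) and 10.4 (D8) times ACTB.

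Of 19 reliably expressed myosin chains and genes of myosin phosphorylation, 10 were downregulated between D2 and D0 and 4 were upregulated between D8 and D4. PPP1R14A had 6.05, 1.06, 0.832 and 4.08 FPKM, the essential light chain MYL6 had 1112, 278, 235 and 744, and the light-chain kinase DAPK3 had 41.7, 7.87, 11.7 and 33.4 at D0, D2, D4 and D8. ARHGEF1 and ARHGEF12, which activate RhoA, and the phosphatase subunit PPP1R12C were at the other end, with log2 ratios of D4 to D0 between -0.15 and 0.47. Among 22 anchor and dense-body proteins, 17 were downregulated and 1 (SVIL) was upregulated between D2 and D0, with a median of -1.73. From D4 to D8, 7 of them were upregulated and 1 was downregulated. CRYAB, a chaperone of desmin, had 32.2, 1.56, 1.56 and 19.6 FPKM, ITGA8 46.1, 6.90, 5.85 and 27.4, and NEXN, an actin-binding protein, 17.8, 2.21, 2.34 and 7.44.

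Of 7 reliably expressed genes of other intermediate filaments, 4 were downregulated and none was upregulated between D2 and D0. Between D4 and D0, 3 were downregulated and 1 was upregulated. The upregulated gene was KRT8, a keratin, with 4.46, 8.25, 15.8 and 25.1 FPKM at D0, D2, D4 and D8. VIM, the main filament of mesenchymal cells, had 2952, 885, 766 and 1898 FPKM, and SYNM, a partner of desmin, had 4.50, 5.15, 4.78 and 4.60. NES, another gene of that list, had 17.7, 0.984, 1.87 and 4.28 FPKM, so that it too was far below D0 at D8. For D4 against D0, the log2 ratio was -6.75 for DES, -3.24 for NES and -1.95 for VIM. Receptors and channels of smooth muscle had no common direction, with 3 of 10 upregulated and 3 downregulated between D4 and D0. The angiotensin receptor AGTR1 had 28.0, 5.96, 7.83 and 24.4 FPKM, whereas the prostaglandin receptor PTGFR had 11.4, 40.1, 65.0 and 30.2.

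**Figure D4:**
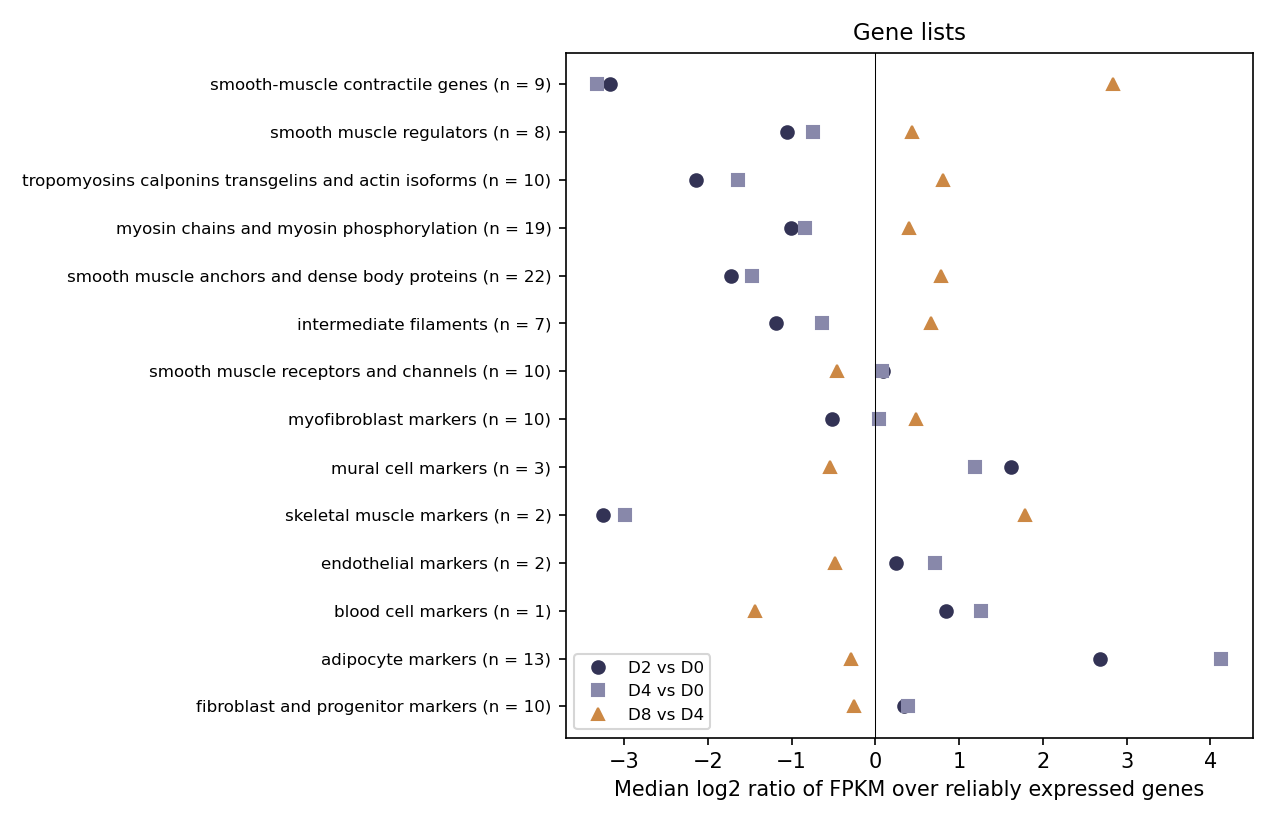
Median log2 ratio of FPKM over the reliably expressed genes of each list (number in brackets) for D2 vs D0, D4 vs D0 and D8 vs D4, with the smooth-muscle contractile genes at the top. The contractile genes have medians of -3.17, -3.32 and 2.84, the adipocyte markers 2.68, 4.13 and -0.29, and lists with 1 to 3 genes are shown for completeness.

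Markers of other cells were read beside these results. Of 13 reliably expressed adipocyte markers, 12 were upregulated at D2 relative to D0, and 12 were upregulated and 1 was downregulated at D4. From D4 to D8, 1 was upregulated and 5 were downregulated. The summed FPKM of that list was 143 for D0, 534 for D2, 1897 for D4, and 2228 for D8. FABP4 had the highest level of the list in each library, with 77.5, 201, 853 and 1557 FPKM, and weighs most in that sum. The median log2 ratio of the list between D8 and D4 was -0.29, so most of its genes did not follow the rise of the sum. Of 10 reliably expressed myofibroblast markers, 4 were downregulated and 1 was upregulated between D2 and D0. Between D8 and D4, 4 were upregulated and 2 were downregulated, and the median log2 ratio between D4 and D0 was 0.05. CTGF had 44.5, 2.01, 6.70 and 52.0 FPKM at D0, D2, D4 and D8, and COL8A1 had 9.70, 1.71, 1.86 and 11.3, while POSTN had 11.09, 6.59, 21.6 and 54.2. PDGFRB had 12.4, 20.9, 28.8 and 12.0 and FAP had 20.8, 43.2, 30.7 and 25.3, so that both were higher at D2 and D4 than at D0. Of 10 fibroblast and progenitor markers, 1 was downregulated between D2 and D0, near the 10.1% of all mRNAs, and 3 were upregulated. The summed FPKM of that list was 3118, 5166, 5657 and 4775. COL1A2 was the highest gene of the list in each library, with 1987, 2907, 2646 and 2484 FPKM, and weighs most in that sum. The median log2 ratio of the list between D8 and D0 was -0.30, although the sum was higher at D8.

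Mural cells (pericytes and vascular smooth muscle) share the contractile genes, and collagenase digests of fat can hold them. Of 9 mural cell markers listed, 4 stayed under 1 FPKM in all libraries, among them the pericyte marker RGS5 (0.156, 0.142, 0.742 and 0.352 at D0, D2, D4 and D8) and MCAM. ABCC9, a potassium-channel subunit, had 10.3, 73.3, 68.6 and 15.4 FPKM, and its partner KCNJ8 had 3.60, 11.099, 8.23 and 5.64, so that both were highest at D2. CSPG4 had 3.85, 0.338, 0.516 and 2.72 FPKM and MCAM had 0.777, 0.0787, 0.103 and 0.105, so that both were lower at D2 and D4 than at D0. The summed FPKM of the mural list was 20.6, 86.5, 80.3 and 27.2. ABCC9 was the highest gene of the list in each library, so the sum follows ABCC9 above all. The part of the mural list in the contractile genes was not tested. The summed FPKM of the endothelial list was 8.18, 7.58, 9.50 and 6.84, and that of the blood cell list 3.54, 6.25, 8.44 and 4.06. Of 10 endothelial markers, 7 stayed under 1 FPKM in all libraries, and the others were ERG (3.72, 0.981, 0.850 and 1.70), EGFL7 (1.64, 5.18, 6.68 and 3.11) and PECAM1 (2.56, 1.14, 1.70 and 1.87). ERG, like the contractile genes, was lower at D2 and D4 than at D0 and D8, whereas EGFL7 was highest at D4. Of 8 blood cell markers, 6 stayed under 1 FPKM, and CD14 was the highest of the others (3.14, 5.64, 7.54 and 2.78). The part of these cells in the contractile genes was not tested. The endothelial genes VWF, KDR and CDH5 reached at most 0.0137, 0.0182 and 0.0450 FPKM, and the leukocyte gene PTPRC reached 0.0712.

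Circular RNAs give a second readout of the same genes. A circRNA forms when the end of an exon is spliced back to an upstream start, and it is counted by the reads across that back-splice junction. The authors gave SRPBM, junction reads scaled to the mapped reads of the library. The smallest value listed in each library was that of 2 junction reads, so that a circRNA listed at 0 may have had 1 read. Of 8623 circRNAs, 16 lay within 5 of the contractile genes on the same strand, 11 of them within CALD1, 2 within ACTA2 and 1 each within ACTG2, TAGLN and DES. No circRNA was listed within CNN1, MYH11, MYL9, MYLK or LMOD1. Of the 16, 13 were found in a single library and 1 in all 4. Single-library circRNAs were common over all genes too. Of all circRNAs above 0 in a library, those found only there were 1262 of 3938 (D0), 992 of 3600 (D2), 1340 of 4185 (D4) and 1258 of 3960 (D8).

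The circRNA with the most reads, ssc_circ_0006731, spans 153 bases of ACTA2 at chr14:100882995-100883147 on the minus strand (Sscrofa11.1), 3585 bases from the 5′ end of the gene. It had 312 junction reads at D0 (2002 SRPBM, exact Poisson interval 1786 to 2237) and was listed at 0 in D2, D4 and D8, where the smallest SRPBM listed for any circRNA was 14.5, 11.9 and 16.8. At D0 it held 0.586% of all junction reads (Wilson 95% interval 0.525% to 0.655%) and ranked 7 among 3938 circRNAs. No fold change is given, because the files list no value under 2 reads. The FPKM of ACTA2 at D8, by contrast, was 95.03% of D0. Among the 45 circRNAs with at least 100 junction reads at D0, it was the only one listed at 0 in the other 3 libraries, and the next highest of the 1262 circRNAs found only at D0 had 29 reads. The other ACTA2 circRNA, ssc_circ_0006730, spans 4402 bases and had 5 junction reads at D8 and was listed at 0 elsewhere. DES had 1 circRNA of 240 bases, ssc_circ_0007356, with 9 junction reads at D0 and listed at 0 elsewhere.

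In CALD1, the 11 circRNAs together had 57 junction reads in D0, 7 in D2, 19 in D4 and 22 in D8, from 8, 1, 3 and 4 circRNAs above 0. Single reads that were not listed are missing from these sums. As SRPBM this was 366 (exact Poisson interval 277 to 474), 50.9 (20.4 to 105), 113 (67.9 to 176) and 185 (116 to 280). The intervals of D0 and D2 did not overlap, whereas those of D4 and D8 did. Relative to D0, the circRNAs of CALD1 stood at 13.9% (D2), 30.8% (D4) and 50.5% (D8), beside 32.2%, 32.7% and 66.8% for the FPKM of the gene. The largest of them, ssc_circ_0008147, spans 23219 bases at chr18:14364147-14387365 and was the only one found in all 4 libraries, with 16, 7, 8 and 10 junction reads. The next, ssc_circ_0008144, had 14 junction reads at D0 and 3 at D8, and ssc_circ_0008141 had 5 at D4 and 3 at D8.

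**Figure D5:**
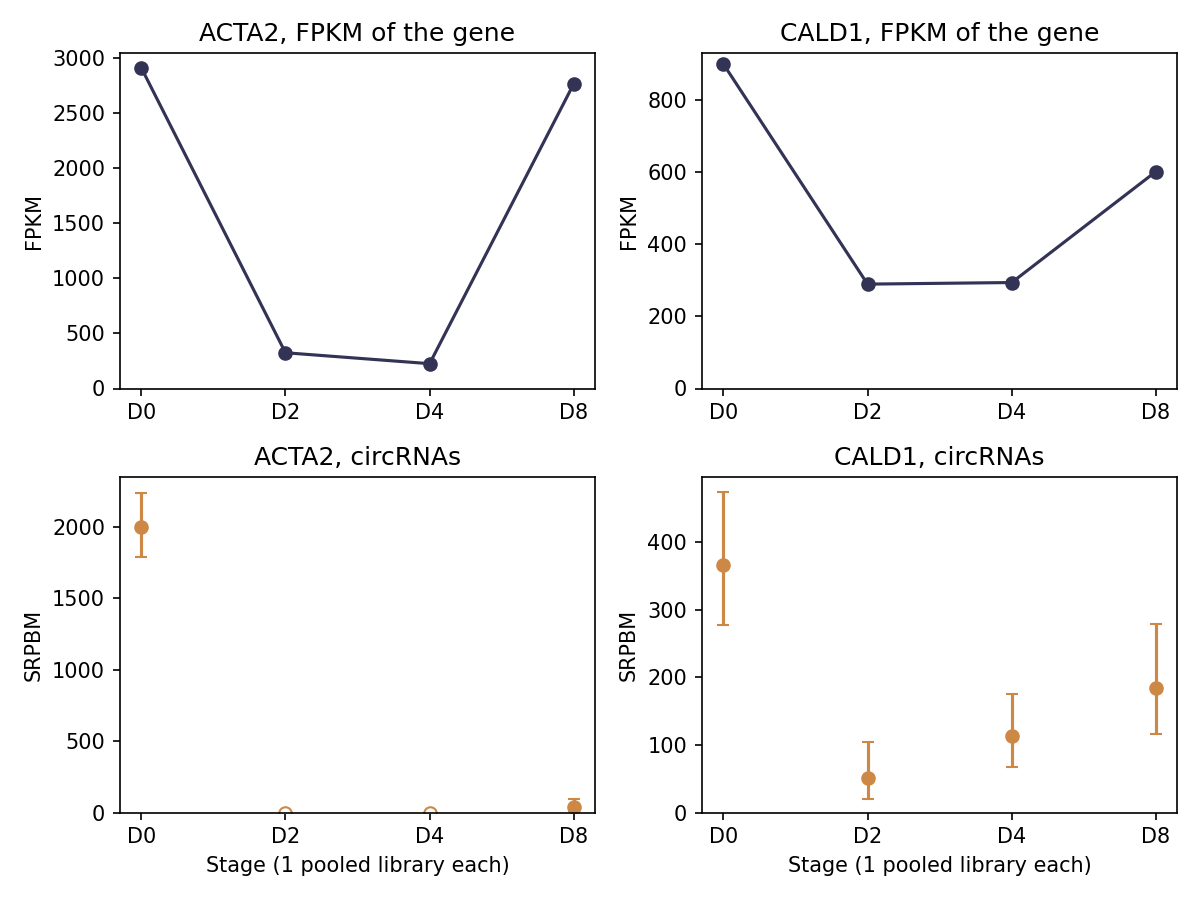
FPKM of ACTA2 and CALD1 (top) and the summed SRPBM of the circRNAs within each gene (bottom, bars for the exact Poisson 95% counting interval, open points where none was listed) in the 4 pooled libraries. The FPKM of ACTA2 at D8 (2762) is near that at D0 (2907), while its circRNAs had 2002 SRPBM at D0 and 42.0 at D8, and the circRNAs of CALD1 had 366, 50.9, 113 and 185.

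The contractile genes lie on 9 different chromosomes of Sscrofa11.1, with ACTG2 and MYH11 both on chromosome 3 and far apart. ACTA2 lies at chr14:100868145-100886732, TAGLN at chr9:44561756-44567385 and DES at chr15:121428539-121435426. Within 10 kb of the 10 genes, 12 other protein-coding genes and 9 lncRNAs were listed. Of the 8 reliably expressed protein-coding neighbours, SHISA4 beside LMOD1 and AGBL3 beside CALD1 were downregulated between D4 and D0, and the other 6 were not called. The only lncRNA that reached 1 FPKM was LOC102160748, which lies inside CALD1 on the same strand. Its FPKM was 7.15 (D0), 2.04 (D2), 5.002 (D4) and 5.61 (D8), and between D4 and D2, where CALD1 was level, its log2 ratio was 1.29. Fragments of unspliced CALD1 and of this lncRNA cannot be told apart in these values.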

How the data were processed

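RNA of 3 piglets was pooled at each stage before 1 rRNA-depleted, strand-specific library was made. The authors removed poor reads, aligned the others to Sscrofa11.1 (HISAT2 2.0.5 per the labels) and deposited FPKM for genes. In the same column they deposited SRPBM, a junction-read signal from BWA-MEM and CIRI, for circRNAs. The counting tool is not given in the sources used here. Library totals behind FPKM were computed from 492 tRNA and miRNA genes, whose length is their span. The fragments of a gene then follow from the shortest length that makes its 4 values whole within 0.02. SRPBM values were divided by that of 1 junction read, which made 100% of them whole within 0.05.

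Without replicates no test was made. The filter (FPKM of at least 1 in 3 of 4 libraries) and the ratio of 2 are those of the study. The study also set a limit on the false discovery rate from DEGseq, which was not applied here. Intervals of ratios are exact Clopper-Pearson intervals, exact Poisson intervals stand beside junction reads, and all intervals cover counting error only. The 10 genes, the 13 lists of other genes and the rules below were chosen with earlier results of these data known. Beside the 10 genes, the text names all genes of lists with up to 9 reliably expressed genes, of longer lists the 3 lowest and 3 highest by D4 vs D0, the nearest profiles, the 5 circRNAs with most junction reads, and lncRNAs within 10 kb that reach FPKM 1. One gene that this rule names is not reported here. Further circRNAs, ACTA1, ACTC1, ACTB, MYH9, FABP4, COL1A2 and the neighbours SHISA4 and AGBL3 were named after their values were seen. Genes were matched to RefSeq annotation of the same build by symbol, start and end (10 of 10). Alternatives were pseudocounts of 0.1 and 1, median-ratio scaling, equal protein-coding totals and no filter. Scripts, checked on simulated data, ran in Python 3.11.15 with pandas 2.3.3 and scipy 1.17.1.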

Additional observations from a re-analysis of the deposited data

How the results depend on the processing

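Of 50 log2 ratios (10 genes in 5 comparisons), the call held for 49 with a pseudocount of 0.1, 48 with a pseudocount of 1, 48 under median-ratio scaling and 49 with equal protein-coding totals. The numbers of contractile genes called stayed within 1.5 times under each alternative tried. The call of MYH11 between D8 and D0 (log2 ratio -1.10) was lost with a pseudocount of 0.1 (-0.91) or 1 (-0.34) and under median-ratio scaling (-0.95). No counting interval was computed for the median log2 ratio of the contractile genes, so moved medians were judged by the interval of the single gene at the median. Medians outside that interval under median-ratio scaling were -3.13 (D2 vs D0), 3.04 (D8 vs D4), -3.36 (D4 vs D0) and -0.47 (D8 vs D0). With equal protein-coding totals they were -3.06 (D2 vs D0), 2.79 (D8 vs D4) and -3.28 (D4 vs D0). Without the filter, which adds MYH11, they were 2.39 (D8 vs D4), -3.10 (D4 vs D0) and -0.73 (D8 vs D0).

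Counts over all mRNAs depended more on these choices. With a pseudocount of 1, 398 mRNAs were upregulated in D2 vs D0 (613 with 0.01), 233 were upregulated (390) and 38 downregulated (77) in D4 vs D2, 474 were downregulated (928) in D8 vs D4 and 173 (338) in D8 vs D0. Median-ratio scaling left 559 downregulated in D8 vs D4 and 204 in D8 vs D0. It shifted log2 ratios by 0.20 in D8 vs D4 and 0.16 in D8 vs D0. Without the filter, 2038 of 16192 mRNAs were upregulated and 2755 downregulated in D2 vs D0, 2007 and 1013 in D4 vs D2, 1778 and 2702 in D8 vs D4, 2842 and 2379 in D4 vs D0, and 1702 and 1808 in D8 vs D0. Beyond the change of setting itself, no cause of these moves was tested, and the counts without the filter cover more genes.

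No paired analysis was possible because each stage is 1 pooled library. For the same reason no replicate was left out. Depth limits MYH11 (105 to 320 fragments) and the circRNAs, most of which had under 10 junction reads.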
